A study of Caenorhabditis elegans with 16 samples.

Results

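Chaperones are proteins that help other proteins fold, and each cell compartment has its own set. The cytosol holds the constitutive Hsp70 (hsp-1) and Hsp90 (daf-21) together with the inducible Hsp70 (hsp-70) and small heat shock proteins (hsp-16.2 and hsp-16.41). The endoplasmic reticulum (ER) holds its own Hsp70 proteins, the BiP homologs hsp-3 and hsp-4, and its own Hsp90, endoplasmin (enpl-1). Mitochondria hold another Hsp70 (hsp-6) and the chaperonin hsp-60. These 10 genes were taken by symbol from a table of raw read counts with 46904 genes, and 7 of them passed the filter on low counts that left 9787 genes for testing. The symbol daf-21 was not in the table, so its row was read under hsp-90, the current name of the gene; the other 9 were found under their own symbols.

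In the worm, transcripts of hsp-16.2, hsp-16.41 and hsp-70 are scarce without stress and rise under heat through the transcription factor HSF-1. The ER genes hsp-3, hsp-4 and enpl-1 belong to the ER unfolded protein response, in which IRE-1 and XBP-1 raise chaperone transcription when unfolded protein builds up, and hsp-4 is its usual reporter. The genes hsp-6 and hsp-60 play the same reporter role for the mitochondrial unfolded protein response, which acts through ATFS-1.

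Whole synchronised Caenorhabditis elegans were grown on agar plates at 20 °C for 3 days, and RNA was counted by a 3′ digital mRNA-seq service. The groups were cua-1(H828Q) mutants on 100 µM CuCl2, the same mutants without added copper, control worms on 100 µM CuCl2 and control worms without added copper, with 4 libraries in each. The product of cua-1 is a copper-pumping ATPase, the worm homolog of the human Wilson and Menkes disease pumps. The labels name neither the control strain nor the origin of the allele, and all groups were fed Escherichia coli OP50. They call the replicates biological but do not say whether they were separate cultures, so p-values measure the spread between these libraries. Counts are given as CPM, counts scaled to a common library size with TMM (trimmed mean of M-values) factors. In RNA of whole worms, fewer cells of a type and less RNA per cell cannot be told apart.

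Total counts ran from 1891008 to 4001750 per library, and 3 counts equal 0.661 to 1.69 CPM. In 5 libraries genes with transcripts over 3000 bp were scarce against genes under 800 bp, with a length balance (difference in median log2 CPM) of -2.28 to -0.68, while the other 11 ran from 0.19 to 1.09. These long-depleted libraries are copper-treated mutant replicate 4, copper-treated control replicate 1 and untreated control replicates 1, 3 and 4. The untreated mutant has none. Leaving them out keeps 1 untreated control library, so fits without them hold no spread for that group. In those fits, comparisons with the untreated control and the interaction take the spread from the other groups. The targeted gene cua-1 stood at 17.7 ± 7.15 CPM in the copper-treated mutant, 29.3 ± 7.21 in the untreated mutant, 24.6 ± 9.29 in the copper-treated control and 11.8 ± 7.33 in the untreated control (SD, n = 4), and a missense allele cannot be read from 3′ counts. Tissue markers fixed as lists were found in all groups, with 7 of 7 genes tested for muscle, neurons, germline, sperm, oocyte and embryo, and hypodermis, and 5 of 6 for intestine. Summed sperm markers ran from 552 to 1062 CPM in the copper-treated mutant and 666 to 711 in the untreated mutant, against 224 to 271 in the copper-treated control and 161 to 461 in the untreated control. Summed oocyte and embryo markers ran from 3415 to 3621 CPM in the copper-treated mutant and 2938 to 3265 in the untreated mutant, against 3751 to 5356 in the copper-treated control and 4287 to 5272 in the untreated control. Their part in the chaperone values was not tested.

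None of the 7 tested chaperones was called in any of the 5 comparisons made with edgeR's quasi-likelihood test at an adjusted p under 0.05. Mutants were compared with controls on plates lacking copper and again on copper plates, copper plates were compared with copper-free ones in controls and then in mutants, and the interaction set the mutants' response to copper against the controls' response. In this order, 21.9%, 6.93%, 1.78%, 2.24% and 5.38% of all tested genes were called. At an unadjusted p under 0.05, 1 of the 35 tests of members passed (hsp-1 in the first comparison), where at that level 40.9% of all tested genes passed; the lowest such share was 12%, for copper in the mutant. DESeq2 called 1 member in the first comparison, again hsp-1, and 0 in the others, where it called 31%, 9.19%, 4.5%, 4.42% and 10.5% of all genes. In 28 of the 35 tests the 95% interval of the fold change lay within a 2-fold change in either direction, as did the intervals of 22.9%, 36.9%, 29.6%, 36.9% and 10.4% of all tested genes in the same order of comparisons. These intervals hold for this scaling: with offsets that remove each library's trend of counts on transcript length, 5 of the 35 fold changes lay outside them, all of hsp-3 or hsp-6, and under the other alternatives 0 did. The 7 wider intervals were those of hsp-1 in the first comparison and the interaction, of enpl-1 in every comparison but copper in the mutant, and of hsp-4 in the interaction.

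**Figure D1:**
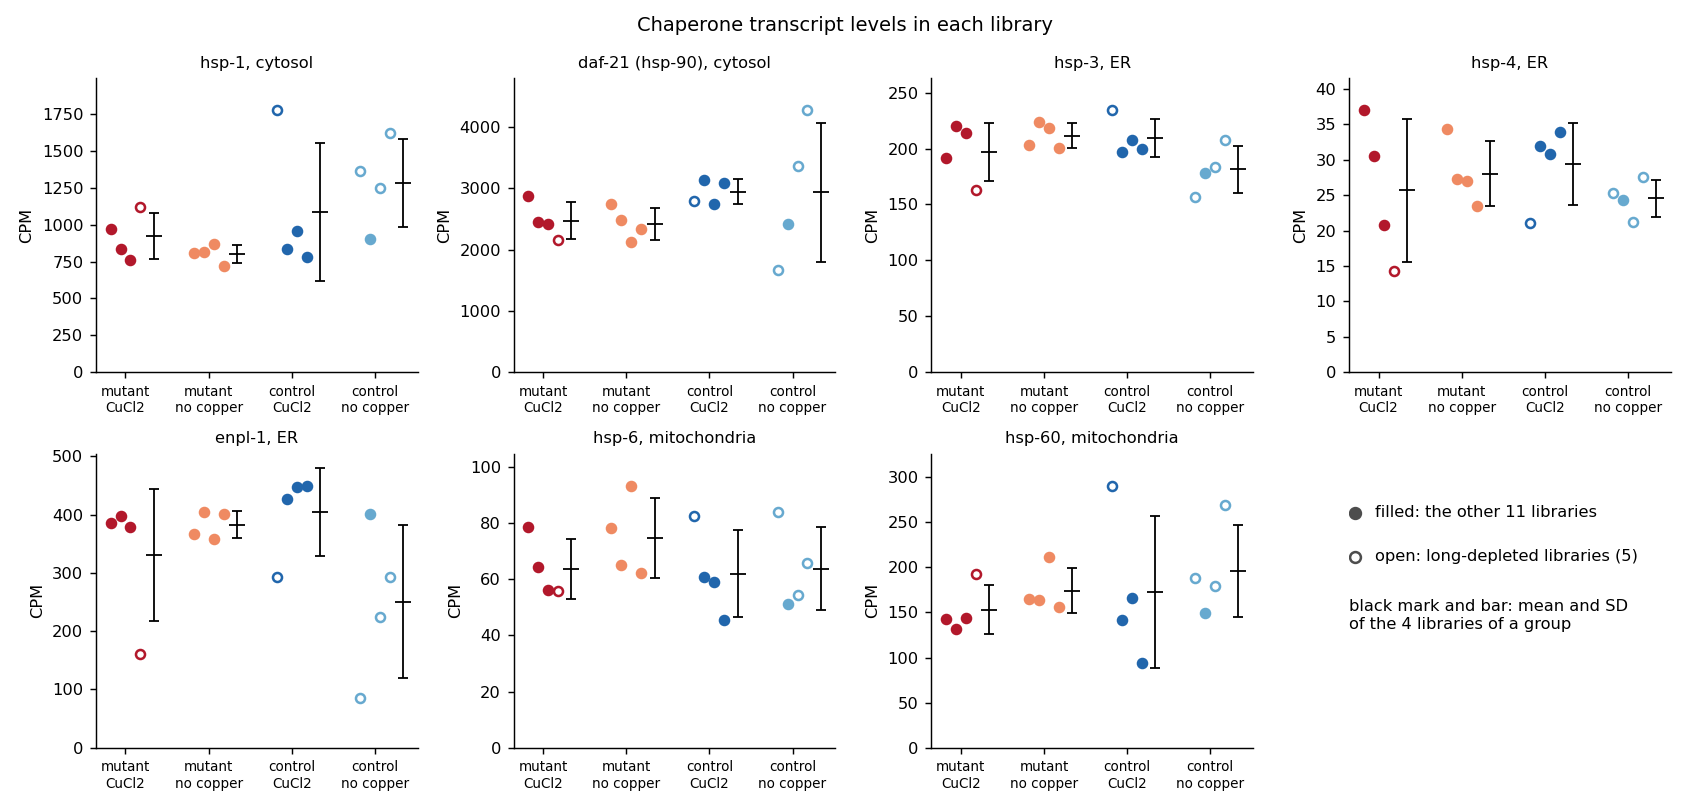
CPM of the 7 tested chaperones in each of the 16 libraries, by group, with the mean and SD of 4 libraries beside the points; open points are the 5 long-depleted libraries. For hsp-1 all open points lie above all filled points, and for enpl-1 all lie below them.

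**Figure D2:**
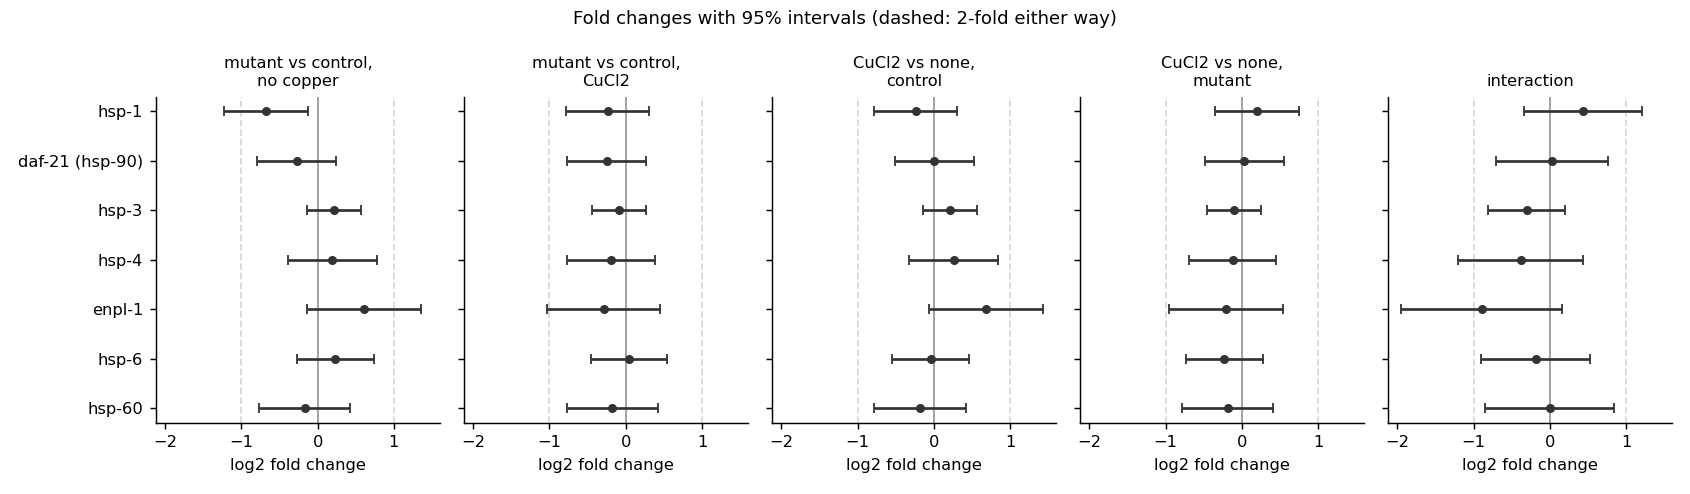
Log2 fold changes of the 7 tested chaperones with 95% intervals in the 5 comparisons; dashed lines mark a 2-fold change either way. Only hsp-1 in mutant against control without copper has an interval that leaves out 0 (-1.22 to -0.12), and its adjusted p was 0.0677.

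Among cytosolic chaperones, hsp-1 (WBGene00002005, chrIV:17278959-17281330 on WBcel235, plus strand) encodes the constitutive Hsp70 that folds new and damaged proteins. Its level was 972, 836, 763 and 1117 CPM in replicates 1 to 4 of the copper-treated mutant and 810.3, 818, 867 and 721 CPM in the untreated mutant. In controls it was 1779.7, 833, 961 and 778 CPM with copper and 1362, 905, 1246 and 1619.5 CPM without. Without copper, every mutant library lay below every control library, a separation in the lower direction that 12.4% of all tested genes showed. The other pairs of groups overlapped.

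The fold change of hsp-1 in mutant against control without copper was -0.67 ± 0.26 (log2 ± standard error, edgeR adjusted p = 0.0677), with means of 804 ± 60.6 CPM in the untreated mutant and 1283 ± 296 CPM in the untreated control (SD, n = 4 each). The 5 long-depleted libraries held hsp-1 at 1117 to 1779.7 CPM and the other 11 at 721 to 972 CPM, without overlap; 13.1% of all tested genes were higher in every long-depleted library. Without them the fold change was -0.22 (adjusted p = 0.321), with 1 untreated control library left at 905 CPM. With the length offsets it was -1.05 (adjusted p = 0.0249), and under these offsets 26.5% of all tested genes were called and their median was -0.10. DESeq2 gave -0.63 (adjusted p = 0.0337), and leaving out copper-treated control replicate 1 or untreated control replicate 2 also brought the adjusted p under 0.05, to 0.0226 and 0.0231. For mutant against control without copper, these leave-out fits called 2915 and 3809 of 9787 tested genes. Without untreated control replicate 2, the untreated control libraries left were all long-depleted. In the same contrast the summed markers of oocytes and embryos (2938 to 3265 CPM in the untreated mutant against 4287 to 5272 CPM in the untreated control) and of intestine (2509 to 3032 CPM against 3404 to 13509 CPM) were lower without overlap, and those of sperm (666 to 711 CPM against 161 to 461 CPM) were higher without overlap. Summed intestine markers also ran from 4521 to 13509 CPM in the 5 long-depleted libraries, against 2416 to 4270 CPM in the other 11. Untreated control replicates 1, 3 and 4 are among those 5. The part of the oocyte and embryo, intestine and sperm markers in the hsp-1 values was not tested.

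On copper hsp-1 differed by -0.24 ± 0.26 between mutant and control (adjusted p = 0.715; 95% interval -0.79 to 0.31). Copper itself gave -0.24 ± 0.26 in the control (adjusted p = 0.564) and 0.20 ± 0.26 in the mutant (adjusted p = 0.73). The interaction of hsp-1 was 0.44 ± 0.37 (adjusted p = 0.407). A snoRNA gene, F26D10.24, lies inside hsp-1 on the same strand and held 11 counts over the 16 libraries.

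The cytosolic Hsp90 gene daf-21 (WBGene00000915, chrV:14684918-14688545, plus strand) was named for its dauer phenotype and encodes the chaperone of kinases and nuclear hormone receptors. It was counted at 2877, 2447, 2412 and 2159 CPM in the copper-treated mutant and 2746, 2486, 2123 and 2338 CPM in the untreated mutant. The controls held 2796, 3142, 2743 and 3094 CPM with copper and 1661, 2426, 3372 and 4283 CPM without. The untreated control had both the lowest and the highest library of all, and it overlapped every other group.

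Mean daf-21 was 2473.5 ± 298 CPM in the copper-treated mutant and 2944 ± 203 CPM in the copper-treated control, a log2 difference of -0.25 ± 0.25 (adjusted p = 0.683), with 1 mutant library inside the control range. Without copper it was 2423 ± 262 CPM in the mutant and 2936 ± 1139 CPM in the control (-0.28 ± 0.25, adjusted p = 0.392). Length offsets made the difference without copper -0.71 (adjusted p = 0.0233), while leaving out the long-depleted libraries made it -0.05 (adjusted p = 0.836). Copper moved daf-21 by 0.004 ± 0.25 in the control and 0.03 ± 0.25 in the mutant, with 95% intervals of -0.51 to 0.52 and -0.49 to 0.55. Its 5′ end overlaps C47E8.4 on the opposite strand, which held 3923 counts in all, and the strand setting of the counting is not stated, so reads of the shared stretch cannot be told apart.

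The inducible cytosolic chaperones were near the limit of counting, and none passed the filter. The small heat shock protein gene hsp-16.2 (chrV:1804334-1804957, minus strand) had 4, 8, 3 and 8 reads in the copper-treated mutant, 3, 7, 3 and 2 in the untreated mutant, against 7, 0, 3 and 0 in the copper-treated control and 3, 0, 0 and 0 in the untreated control. All 8 mutant libraries held at least 2 reads, and 5 of the 8 control libraries held 0. These raw reads do not allow for depth. In the untreated mutant 3 counts equal 0.661 to 0.78 CPM, against 0.934 to 1.69 CPM in the untreated control. At an equal level, 0 reads are thus more likely in the untreated control. On copper the genotypes overlapped in this value. In an edgeR fit with no filter, hsp-16.2 had an unadjusted p of 0.203 for mutant against control without copper and 0.338 on copper. Its neighbour hsp-16.41 (chrV:1805178-1805875, plus strand), a small heat shock protein gene that starts close by on the other strand, had 8, 4, 2 and 1 reads summed over the same groups. The inducible Hsp70 gene hsp-70 (chrI:9320325-9322519, minus strand) had 0, 2, 1 and 0 reads in the copper-treated mutant, 4, 1, 2 and 6 in the untreated mutant, against 0, 1, 0 and 4 in the copper-treated control and 0, 0, 1 and 0 in the untreated control. It lies within uggt-2 on the opposite strand, which held 5 reads in all.

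**Figure D3:**
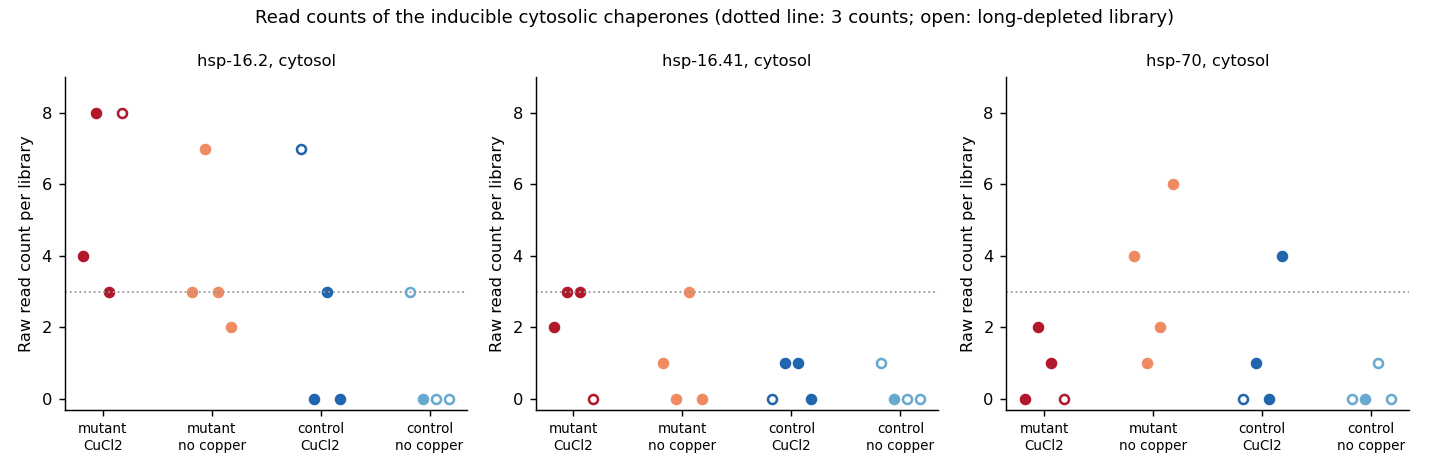
Raw read counts of hsp-16.2, hsp-16.41 and hsp-70 in each library, by group; the dotted line marks 3 counts and open points are long-depleted libraries. No library exceeds 8 reads of any of the 3 genes.

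Ratios of the summed reads, scaled to library size, had wide intervals (exact 95%, for counting error alone, as reads may stem from the same molecule). For hsp-16.2 the ratio was 2.83 (0.8 to 15.2) for mutant against control without copper, from 15 reads against 3, and 1.87 (0.856 to 4.40) on copper, from 23 against 10. Copper against none gave 2.57 (0.661 to 14.5) in the control, from 10 against 3, and 1.70 (0.848 to 3.5) in the mutant, from 23 against 15. For hsp-70 the ratio of untreated mutant to untreated control was 7.35 (1.1 to 312), from 13 reads against 1, and that of copper-treated to untreated mutant 0.256 (0.0467 to 0.930), from 3 against 13. On copper the ratio of mutant to control was 0.488 (0.0757 to 2.51), from 3 reads against 5, and copper against none in the control gave 3.85 (0.431 to 182), from 5 against 1. In an edgeR fit of 18721 genes with no filter, none of the 3 was called in any comparison and none had an unadjusted p under 0.05; the lowest adjusted p was 0.223, for hsp-70 in mutant against control without copper. No rise on copper was detected. The upper bounds, for counting error alone, were 3.5-fold for hsp-16.2, 10.05-fold for hsp-16.41 and 0.930-fold for hsp-70 in the mutant. In the control they were 14.5-fold for hsp-16.2, 90.9-fold for hsp-16.41 and 182-fold for hsp-70. These bounds leave out the spread between libraries, so they do not limit a response to copper. In the fit with no filter, copper in the mutant gave -1.86 ± 1.14 for hsp-70 (edgeR unadjusted p = 0.112).

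The ER chaperone hsp-3 (WBGene00002007, chrX:6089028-6092124, minus strand), a BiP homolog expressed without stress, had the smallest standard errors of the tested members. It stood at 197 ± 25.7 CPM in the copper-treated mutant (163 to 219.9), 211 ± 11.2 in the untreated mutant (201 to 223), 209.6 ± 17.4 in the copper-treated control (197 to 234.7) and 182 ± 21.1 in the untreated control (157 to 208). All groups overlapped. The fold change was 0.22 ± 0.17 for the mutant without copper (95% interval -0.13 to 0.57, adjusted p = 0.319) and -0.09 ± 0.17 on copper (-0.44 to 0.27, adjusted p = 0.823). It was 0.21 ± 0.17 for copper in the control (-0.15 to 0.56) and -0.10 ± 0.17 for copper in the mutant (-0.45 to 0.25). Length offsets turned the sign of hsp-3 in all 4, to -0.38, 0.13, -0.26 and 0.24, and that of its interaction to 0.51, against -0.31 ± 0.24 (-0.81 to 0.19); none was called.

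The second BiP homolog hsp-4 (WBGene00002008, chrII:7350112-7352645, minus strand), the reporter of the ER unfolded protein response, was counted with fewer reads and a wider spread. It stood at 25.7 ± 10.1 CPM in the copper-treated mutant (14.2 to 37.1), 28.0 ± 4.59 in the untreated mutant (23.4 to 34.4), 29.4 ± 5.76 in the copper-treated control (21 to 34) and 24.6 ± 2.64 in the untreated control (21.2 to 27.5). The lowest library of each copper-treated group was its long-depleted one. Copper changed hsp-4 by 0.26 ± 0.28 in the control (-0.32 to 0.84) and -0.12 ± 0.27 in the mutant (-0.69 to 0.45), and the mutant differed from the control by 0.19 ± 0.27 without copper and -0.19 ± 0.27 with it. The adjusted p of these 4 values ran from 0.548 to 0.843.

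Endoplasmin, the ER Hsp90 encoded by enpl-1 (WBGene00011480, chrIV:11119298-11123155, plus strand), had the largest fold change of the tested members for the mutant on copper, for copper in the control and in the interaction. It was at 386, 397, 378 and 162 CPM in the copper-treated mutant and 368, 404, 359 and 401 CPM in the untreated mutant. The controls held 292, 428, 447 and 450.0 CPM with copper and 85.8, 401, 224 and 293 CPM without. The 5 lowest of the 16 values were the 5 long-depleted libraries, at 85.8 to 293 CPM, and the other 11 ran from 359 to 450.0 CPM. Of all tested genes, 13% were lower in every long-depleted library.

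Copper gave a fold change of 0.69 ± 0.35 for enpl-1 in the control (adjusted p = 0.281) and -0.21 ± 0.35 in the mutant (adjusted p = 0.788), and the interaction was -0.90 ± 0.50 (adjusted p = 0.224). The untreated mutant differed from the untreated control by 0.61 ± 0.35 (adjusted p = 0.195), and without untreated control replicate 2 by 0.93 (adjusted p = 0.0475). Without the long-depleted libraries these values were 0.10, 0.001, -0.10 and -0.12, with adjusted p of 0.729, 0.997, 0.766 and 0.602. In the fit without untreated control replicate 2, the untreated control libraries left were all long-depleted. For mutant against control without copper that fit called 3809 of 9787 tested genes. The last bases of enpl-1 are shared with spo-11 on the opposite strand, which held 997 counts over the 16 libraries. As the strand setting is not stated, reads of these bases cannot be told apart either.

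**Figure D4:**
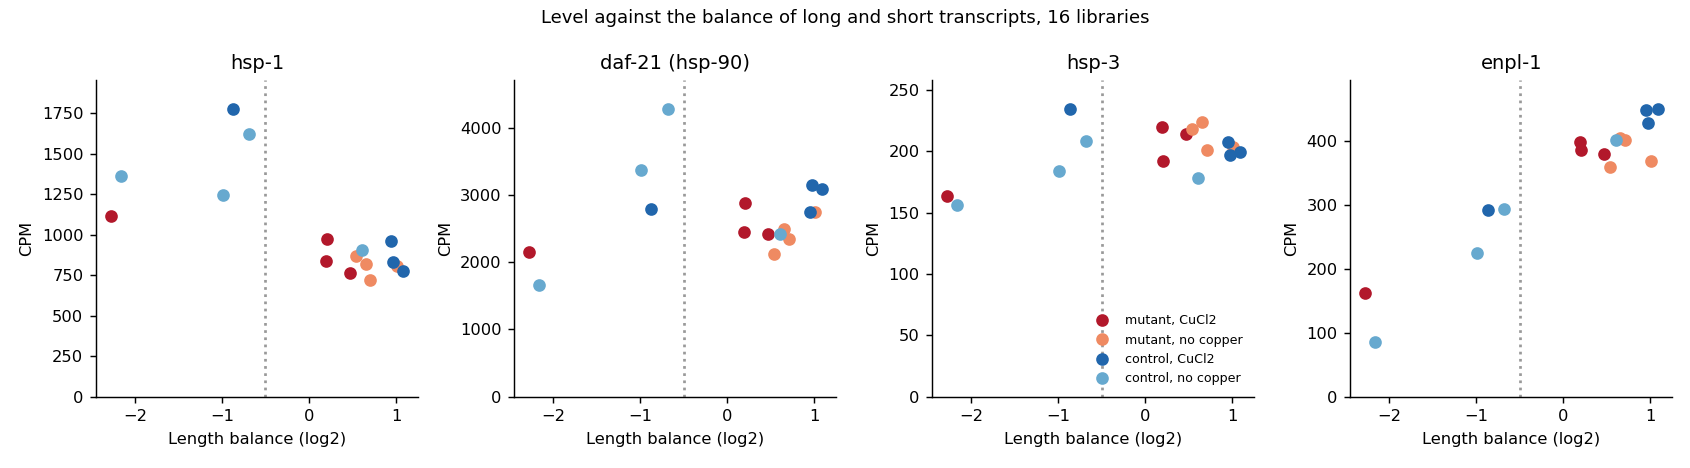
CPM of hsp-1, daf-21, hsp-3 and enpl-1 against the length balance of each of the 16 libraries (difference in median log2 CPM of genes over 3000 bp and under 800 bp); the dotted line at -0.5 sets off the long-depleted libraries on the left. Levels of hsp-1 are higher and those of enpl-1 lower on the left, while daf-21 holds its lowest and highest values there.

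Mitochondrial Hsp70, encoded by hsp-6 (WBGene00002010, chrV:4824124-4826760, minus strand), pulls proteins into the matrix and folds them. It was at 63.8 ± 10.6 CPM in the copper-treated mutant (55.9 to 78.5), 74.7 ± 14.2 in the untreated mutant (62.3 to 93.3), 62.0 ± 15.4 in the copper-treated control (45.4 to 82.6) and 63.8 ± 14.9 in the untreated control (51.1 to 84.0). All 4 groups overlapped. The fold change was 0.23 ± 0.24 for the mutant without copper (-0.27 to 0.73, adjusted p = 0.466), 0.04 ± 0.24 for the mutant on copper (-0.46 to 0.54), -0.04 ± 0.24 for copper in the control (-0.54 to 0.46) and -0.23 ± 0.24 for copper in the mutant (-0.73 to 0.27). The mutant without copper stood at -0.35 with length offsets (adjusted p = 0.422) and at 0.50 when the long-depleted libraries were left out (adjusted p = 0.142). The interaction of hsp-6 was -0.19 ± 0.34 (-0.90 to 0.52) and 0.56 with length offsets.

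The mitochondrial chaperonin hsp-60 (WBGene00002025, chrIII:1619742-1625803, plus strand), which forms the folding chamber of the matrix, was at 153 ± 27.2 CPM in the copper-treated mutant (132 to 193), 174 ± 24.9 in the untreated mutant (157 to 211), 173 ± 84.0 in the copper-treated control (93.7 to 291) and 196 ± 50.9 in the untreated control (149 to 269). The highest library of each copper-treated group and of the untreated control was a long-depleted one. The 4 simple fold changes were between -0.19 and -0.17, each with a standard error of 0.28 or 0.29 and an adjusted p of 0.658 to 0.794, and the interaction was -0.004 ± 0.40.

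Over the 16 libraries the members did not move as 1 block. As a description over libraries that share their normalisation and their length balance, Pearson's r of log2 CPM was 0.79 for hsp-1 and hsp-60, but 0.25 over the 11 libraries that were not long-depleted. For the ER pair hsp-3 and enpl-1 it was 0.70 over all 16 and -0.21 over the 11, and for hsp-3 and hsp-4 it was 0.30 and -0.13. The mitochondrial pair hsp-6 and hsp-60 kept a similar value, 0.56 over the 16 and 0.74 over the 11. Across all tested genes r with the length balance had a median of -0.03 and ran from -0.89 at the 5th percentile to 0.94 at the 95th, and the members ranged from -0.73 for hsp-1 to 0.92 for enpl-1.

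The genes closest to each member were picked by the same correlation over the 16 libraries. For hsp-1 they were npp-4, gsp-1 and tsen-54 (r of 0.97, 0.96 and 0.96, and 0.90, 0.59 and 0.73 over the 11 libraries). For enpl-1 they were hcf-1, hse-5 and ech-1.2 (0.99 each over the 16, but 0.63, 0.53 and 0.52 over the 11). For daf-21 they were pop-1, dhhc-6 and pqn-59 (0.94 to 0.95, and 0.81 to 0.85). The nearest genes of hsp-6 were cls-2, apy-1 and dct-18 (0.75 to 0.77, and 0.72 to 0.89), and those of hsp-60 were Y47D3A.21, dlat-1 and ivd-1 (0.85 to 0.87, and 0.66 to 0.77). The ER genes hsp-3 and hsp-4 had rme-1, vha-11 and C36B7.6 (0.84 to 0.85, and 0.55 to 0.72), and ZK1127.4, eif-2Bdelta and dom-3 (0.84 to 0.85, and 0.64 to 0.65), as their nearest.

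Further chaperones and stress response genes were read from 3 lists. Of 48 other cytosolic chaperones and co-chaperones 37 were tested, of 30 other ER folding and unfolded protein response genes 29, and of 23 other mitochondrial chaperones, proteases and import genes 22. In mutant against control without copper, 1 cytosolic gene was called higher and 7 lower (2.7% and 18.9%, with a median of -0.21), 3 ER genes higher and 4 lower (10.3% and 13.8%, median 0.20) and 1 mitochondrial gene higher and 3 lower (4.55% and 13.6%, median -0.45). The summed oocyte and embryo, intestine and sperm markers and the length balance differed in the same contrast, as given above, and their part in these counts was not tested. Over all tested genes 9.39% were called higher and 12.5% lower, with a median of 0.002. Without the long-depleted libraries the cytosolic counts were 4 higher and 4 lower, the ER counts 3 and 1 and the mitochondrial counts 2 and 0, against 11.1% and 6.41% of all genes. The medians were then -0.16 for the cytosolic, -0.02 for the ER and 0.003 for the mitochondrial list, against -0.006 for all tested genes. With length offsets they were -0.32, -0.17 and -0.36, against -0.10 for all tested genes. The ER median turned its sign in both, but without the long-depleted libraries it lay near that of all tested genes.

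**Figure D5:**
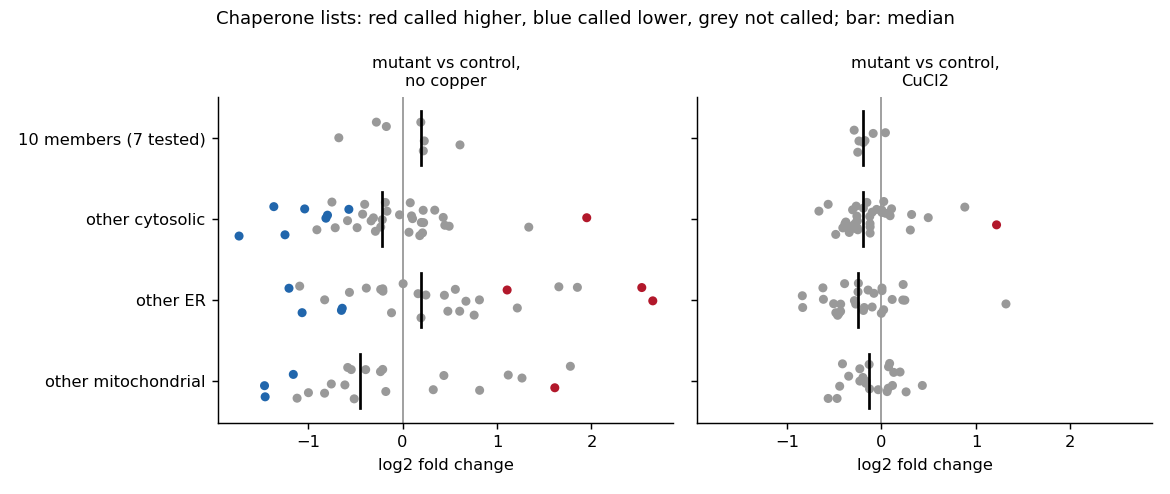
Log2 fold changes of the 7 tested members and the tested genes of 3 further chaperone lists in mutant against control, without copper on the left and with CuCl2 on the right; each point is a gene, coloured where called, and the bar is the median. Called genes stand in the 3 further lists without copper, and hsp-17 is the 1 called gene with copper.

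Of the cytosolic genes, the small heat shock protein gene sip-1, active in embryos, fell in the untreated mutant (-1.04 ± 0.26, edgeR adjusted p = 0.0168). It stood at 4635 ± 600 CPM there, against 9501 ± 3070 in the untreated control. Without the long-depleted libraries, with 1 untreated control library left, its fold change was -0.42. Of 24 alternatives 2 ended the call, with adjusted p up to 0.0522. The small heat shock protein gene hsp-12.3 (-1.73 ± 0.53, adjusted p = 0.0324) and the prefoldin subunit pfd-4 (-1.24 ± 0.39, adjusted p = 0.0345) fell too. Without those libraries hsp-12.3 was at -1.44 (adjusted p = 0.147) and pfd-4 at -0.33 (adjusted p = 0.294), neither called. The BAG-domain co-chaperone unc-23 rose by 1.95 ± 0.53 (adjusted p = 0.0221), a call that 4 of 24 alternatives ended (adjusted p up to 0.0628). It ran from 4.94 to 10.1 CPM in the untreated mutant, against 0.934 to 4.49 CPM in the untreated control. Without the long-depleted libraries its fold change was 2.90, with 1 untreated control library left at 0.934 CPM, which equals 3 counts there. The size of both unc-23 fold changes is therefore uncertain. Of the ER genes, xbp-1, the transcription factor of the unfolded protein response, fell in the untreated mutant (-0.65 ± 0.17, edgeR adjusted p = 0.0192). Its level was 131 ± 8.29 CPM there, against 205 ± 22.9 in the untreated control. Without the long-depleted libraries, with 1 untreated control library left, its fold change was -0.54. In 3 of 24 alternatives xbp-1 was not called (adjusted p up to 0.0999). A call on xbp-1 counts all its transcripts and does not see the splicing by IRE-1.

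The ER prolyl isomerase fkb-3 rose to 8.91 ± 0.777 CPM in the untreated mutant, against 1.4 ± 1.16 in the untreated control (2.65 ± 0.58, adjusted p = 0.00891), and held its call in all 24 alternatives. In the untreated control fkb-3 ran from 0.459 to 3.09 CPM, where 3 counts equal 0.934 to 1.69 CPM. The size of its fold change is therefore uncertain. The derlin gene der-2, listed as R151.6, fell by 1.20 ± 0.30 (adjusted p = 0.0168; -0.51 with adjusted p = 0.0819 without the long-depleted libraries) and the ER ubiquitin ligase sel-11 by 0.64 ± 0.21 (adjusted p = 0.0433); 16 of 24 alternatives ended the call on sel-11. Of the mitochondrial genes, ubl-5, a regulator of the mitochondrial unfolded protein response, fell by 1.45 ± 0.42 (adjusted p = 0.0277), and the import genes tomm-20 and timm-23 by 1.16 ± 0.37 and 1.46 ± 0.48. Without those libraries none of the 3 was called: ubl-5 was at -0.48 (adjusted p = 0.179), tomm-20 at -0.008 (adjusted p = 0.984) and timm-23 at -0.51 (adjusted p = 0.107). The import motor gene tin-44 rose by 1.61 ± 0.52 (edgeR adjusted p = 0.0398), and by 0.84 without those libraries, with 1 untreated control library left. Of 24 alternatives 10 ended its call (adjusted p up to 0.102).

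On copper, hsp-17, a small heat shock protein gene, was the single call in the 3 lists for mutant against control (edgeR), against 6.39% of all tested genes called higher and 0.542% lower. It stood at 25.5 ± 6.99 CPM in the copper-treated mutant, 14.5 ± 4.84 in the untreated mutant, 10.8 ± 3.31 in the copper-treated control and 11.4 ± 4.78 in the untreated control. Every copper-treated mutant library (17.7 to 32.1 CPM) lay above every copper-treated control library (7.83 to 15.5 CPM), as for 11.3% of all tested genes, and the fold change was 1.22 ± 0.34 (adjusted p = 0.0375). In the same contrast summed muscle markers were also higher without overlap (5250.5 to 7775 CPM in the copper-treated mutant against 3155 to 5120.2 CPM in the copper-treated control), as were sperm markers, and summed neuron markers met at the edge of their ranges (421.61 to 602 CPM against 229.6 to 421.607 CPM). Summed germline markers were lower without overlap (1104 to 1552 CPM in the copper-treated mutant, 1570 to 1801 CPM in the copper-treated control). Oocyte and embryo markers were lower without overlap too (3415 to 3621 CPM against 3751 to 5356 CPM). The part of all these markers in the hsp-17 values was not tested. In 11 of 24 alternatives hsp-17 was not called, and over all of them the adjusted p ran from 0.0156 to 0.182. When the long-depleted libraries were left out, this contrast called 2 cytosolic genes higher and 4 lower, 2 ER genes higher and 6 lower, and 0 mitochondrial genes higher and 3 lower. The shares of all tested genes were then 14.9% higher and 8.52% lower.

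Copper called 0 tested genes of the 3 lists in the control and 0 in the mutant, with edgeR and with DESeq2. At an unadjusted edgeR p under 0.05 there were 3 cytosolic, 6 ER and 4 mitochondrial genes in the control and 2, 2 and 0 in the mutant, where 19.1% of all tested genes in the control and 12% in the mutant passed. The interaction called 0 with edgeR and 1 of each list with DESeq2, with 4 cytosolic, 10 ER and 9 mitochondrial genes at an unadjusted edgeR p under 0.05, as had 28.8% of all tested genes. These zeros did not hold when the long-depleted libraries were left out. Copper in the control then called 2 ER genes and 1 mitochondrial gene higher and 0 lower, with 2.37% of all tested genes higher and 2.41% lower. Copper in the mutant called 2 cytosolic genes higher and 1 lower, 3 ER genes lower and 5 mitochondrial genes lower, with 7.62% of all tested genes higher and 6.89% lower. The interaction called 4 ER and 4 mitochondrial genes lower and 0 cytosolic genes, with 5.22% of all tested genes higher and 6.95% lower. Of 11 cytosolic genes that were not tested, hsp-16.1, hsp-16.11, hsp-16.48 and hsp-16.49 had 0 counts in every library. These form near-identical pairs of gene copies, so their counts are uncertain whatever their expression.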

How the data were processed

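RNA of whole worms was measured in 16 libraries, 4 per group. The authors deposited raw read counts per gene with no normalization. Per the submitters' processing notes, reads were handled with bcl2fastq, STAR 2.6.0a and HTSeq on build ce11; settings, annotation release and the strand setting are not given in the sources used here. Column headings equal the sample titles, so 16 columns were assigned and 0 remained unassigned. Positions and lengths were read from Ensembl's WBcel235 annotation (ce11 is the same assembly) and found for 43064 of 46904 rows.

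Counts were filtered with filterByExpr, scaled with TMM and tested with edgeR 4.0.16 (R 4.3.3): 1 mean per group over all 16 libraries, robust dispersion, quasi-likelihood test, Benjamini-Hochberg adjustment over 9787 genes, called under 0.05. After ±, CPM values carry the SD over 4 libraries and log2 fold changes the standard error. The procedure was tested on simulated counts with a fixed dispersion and no length trend. That test therefore does not cover data with long-depleted libraries. Total counts of 1891008 to 4001750 per library set the precision; ratios of genes with few reads divide the summed reads of 2 groups, with no floor.

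Alternatives were DESeq2 size factors, DESeq2 1.42.0, no filter beyond 1 count, a filter of 5 CPM in 4 libraries, fits of only the groups compared, a replicate number block, transcript length offsets (lowess span 0.3), leaving out the long-depleted libraries (length balance below -0.5), and leaving out each library.

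The 10 members and the lists were chosen with earlier results of these data known. The text names the members, cua-1, up to 4 called genes of each further list with the smallest adjusted p in a comparison, and the 3 genes most correlated with each tested member over the 16 libraries (log2 CPM, prior count 2). Of the listed names, der-2 and atf-4 were matched by gene identifier, and 2 locus names repeated genes already listed.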

Additional observations from a re-analysis of the deposited data

Results flagged for a closer look

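In 6 of 40 sets of 4 libraries (10 genes, 4 groups) 1 library stood far from the rest by Dixon's criterion of 0.829. Chance gives about 1 in 20 for values that vary continuously. The ER chaperone enpl-1 was low in copper-treated mutant replicate 4, at 162 CPM with the other 3 libraries at 378 to 397, and in copper-treated control replicate 1, at 292 CPM against 428 to 450.0. Both are long-depleted libraries. The mitochondrial hsp-60 was high in untreated mutant replicate 3, at 211 CPM against 157 to 165. The other flags are single untreated control libraries with a few reads where the rest of the group had 0, a pattern that meets the criterion by construction, so that the chance rate does not apply to them: hsp-70 at 0.441 CPM in replicate 3 (1 read), hsp-16.2 at 1.38 CPM in replicate 1 (3 reads) and hsp-16.41 at 0.459 CPM in replicate 1 (1 read).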

How the results depend on the processing

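For the members, the fits gave 833 fold changes under alternatives; 759 kept their direction and side of the threshold, 6 gained a call, 0 lost one, since none was called, and 68 changed sign. With mutant against control without copper, 1 member was called with DESeq2 (hsp-1), 2 with length offsets (hsp-1 and daf-21), and 0 to 2 when 1 library was left out, with hsp-1 called without copper-treated control replicate 1, and hsp-1 and enpl-1 without untreated control replicate 2; all other alternatives called 0 members in every comparison. No pairing by the numbers 1 to 4 was seen. Same-numbered libraries of different groups had correlated deviations (r over 0.1) in 6 of 24 pairs. Over the 24 pairs r ran from -0.60 to 0.55, and 1 of 16 libraries was closest to its own number. The long-depleted libraries entered these correlations and are not on the same numbers in every group, so a pairing could be missed. With the replicate block 0 members were called in any comparison, all genes called without copper numbered 1419 (against 2141) and copper in the control called 64 (against 174).

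Other counts of all genes called that moved by over 1.5 times were, without the long-depleted libraries, 2288 (against 678) for mutant against control on copper, 468 (against 174) for copper in the control, 1420 (against 219) for copper in the mutant and 1191 (against 527) for the interaction. For the mutant on copper the calls divided into 1454 higher and 834 lower without those libraries, against 625 and 53 with them, and with length offsets 523 of 642 were higher; copper without those libraries divided into 232 and 236 in the control (against 45 and 129) and 746 and 674 in the mutant (against 174 and 45), and the interaction into 511 and 680 (against 402 and 125). With DESeq2 the calls of copper in the control, copper in the mutant and the interaction were 440, 432 and 1031, and with the libraries of the comparison alone copper called 13 in the control and 473 in the mutant. Leaving out 1 library gave 743 to 3809 for the mutant without copper, 441 to 808 for the mutant on copper, 44 to 884 for copper in the control, 112 to 320 for copper in the mutant and 330 to 2159 for the interaction. The counts of 3809, 884 and 2159 were without untreated control replicate 2, and those of 441, 44 and 330 without copper-treated control replicate 3 or 4.

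Sign changes were between values that were not called; the cause was not tested. With length offsets, mutant against control without copper gave -0.38 for hsp-3, -0.22 for hsp-4 and -0.35 for hsp-6, and with copper 0.13 for hsp-3; copper in the control gave -0.35 for daf-21, -0.26 for hsp-3 and -0.10 for hsp-4; copper in the mutant gave 0.24 for hsp-3, 0.0512 for hsp-4, 0.0286 for enpl-1, 0.0656 for hsp-6 and 0.0779 for hsp-60; and the interaction gave 0.51 for hsp-3, 0.15 for hsp-4, 0.56 for hsp-6 and 0.52 for hsp-60. Without the long-depleted libraries, mutant against control without copper gave -0.12 for enpl-1 and 0.17 for hsp-60, and with copper 0.0276 for hsp-3 and 0.0472 for hsp-60; copper gave 0.0552 for hsp-6 in the control and 0.0520 for hsp-4 and 0.00124 for enpl-1 in the mutant; the daf-21 interaction was -0.19. With DESeq2 size factors, hsp-6 for copper in the control was 0.000497, daf-21 for copper in the mutant -0.0113 and the daf-21 interaction -0.0701, and with DESeq2 these were 0.000475, -0.0113 and -0.0701. With no filter hsp-6 for copper in the control was 0.0351 and the daf-21 interaction -0.0780. With the stricter filter daf-21 for copper in the control was -0.0074 and the hsp-60 interaction 0.0146, which was 0.0141 with the replicate block. With the libraries of the comparison alone daf-21 for copper in the mutant was -0.0016.

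When 1 library was left out, sign changes lay in these ranges. For mutant against control without copper, hsp-60 ran from -0.28 to 0.0168. For mutant against control on copper, hsp-1 ran from -0.37 to 0.11, hsp-4 from -0.42 to 0.0027, hsp-6 from -0.0835 to 0.21 and hsp-60 from -0.38 to 0.20. For copper in the control, daf-21 ran from -0.19 to 0.24, hsp-6 from -0.21 to 0.12 and hsp-60 from -0.56 to 0.0226. For copper in the mutant, daf-21 ran from -0.0511 to 0.10, hsp-4 from -0.35 to 0.0716 and enpl-1 from -0.34 to 0.0163. For the interaction, daf-21 ran from -0.21 to 0.22 and hsp-60 from -0.21 to 0.37.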

Other observations

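Ratios to the cytosolic Hsp70 hsp-1 within a library, chosen after their values were seen, separated the untreated genotypes for mitochondrial hsp-6 and for ER hsp-3, as the level of hsp-1 alone did. The log2 ratio of hsp-6 to hsp-1 was -3.36, -3.64, -3.21 and -3.52 in the untreated mutant, against -4.01, -4.13, -4.51 and -4.61 in the untreated control, without overlap. That of hsp-3 to hsp-1 was -1.99, -1.87, -1.99 and -1.84 in the untreated mutant, against -3.12, -2.34, -2.76 and -2.96 in the untreated control. The share of other gene pairs that separate in this way was not computed. The other ratios examined, daf-21 to hsp-1, enpl-1 to daf-21, hsp-4 to hsp-3 and hsp-6 to hsp-60, overlapped between the untreated genotypes. Both ratios that separated have hsp-1 below the line, which was higher in every long-depleted library. Untreated control replicates 1, 3 and 4 are long-depleted. For hsp-6 the 1 untreated control library that was not long-depleted, replicate 2, held -4.13. On copper the mutant held hsp-6 to hsp-1 at -3.62, -3.68, -3.75 and -4.31 and the control -4.42, -3.76, -4.01 and -4.08, with overlap. For hsp-3 to hsp-1 on copper the mutant held -2.34, -1.92, -1.83 and -2.77 and the control -2.92, -2.08, -2.21 and -1.96, also with overlap. The long-depleted library was the lowest of each copper-treated group for both ratios.

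The inducible Hsp70 genes F44E5.4 and F44E5.5, also described after their values were seen, were too low to test and are near-identical copies. Summed reads of F44E5.5 were 44 in the copper-treated mutant, 21 in the untreated mutant, 8 in the copper-treated control and 7 in the untreated control, and those of F44E5.4 were 25, 28, 13 and 5. In the fit with no filter F44E5.5 differed between mutant and control on copper by 2.10 ± 0.86 on the log2 scale, with an unadjusted edgeR p of 0.0215 and an adjusted p of 0.237, while F44E5.4 differed by 0.63 ± 0.86, with an unadjusted p of 0.472 and an adjusted p of 0.786. For F44E5.5 long-depleted replicate 4 held 1 read, against 9, 21 and 13 in the rest of the copper-treated mutant.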
